A study of Mus musculus with 4 samples.

Results

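The genes of oxidative phosphorylation were compared between wild-type and Smg6-deficient mouse embryonic stem (ES) cells. Members were the rows whose symbol names a subunit of complexes I to V: Ndufa, Ndufb, Ndufc, Ndufs and Ndufv genes with a number, Sdha to Sdhd, Uqcr genes, Cyc1, Cox4 to Cox8 genes, Atp5 genes and the mitochondrially encoded mRNAs. The rule used no measured value and found 98 genes among 37224, of which 85 are nuclear and 13 mitochondrial; 6 rows named as pseudogenes ("-ps") were left out. One remaining member, Cox6c2, is annotated by GENCODE as a processed pseudogene. RNA-seq was carried out on 2 libraries of wild-type ES cells and 2 of Smg6-deficient ES cells. No treatment, time, strain or allele is given in the labels. They name embryo as the tissue and do not say how Smg6 was disrupted or whether feeder cells were present. Since they also do not say if replicates are different cultures or lines, p-values here reflect the spread between libraries alone, and that spread may be technical.

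Oxidative phosphorylation passes electrons from NADH and succinate through complexes I and II to ubiquinone, then through complex III and cytochrome c to complex IV, which reduces oxygen. Complexes I, III and IV pump protons across the inner mitochondrial membrane, and complex V, the ATP synthase, makes ATP from the gradient. Most subunits are encoded in the nucleus, and a small set is encoded by mitochondrial DNA, so the complexes are assembled from products of both genomes. Pluripotent stem cells rely heavily on glycolysis and still carry an active respiratory chain. Smg6, the gene that was disrupted, codes for an mRNA-cutting enzyme of nonsense-mediated decay, the pathway that degrades mRNAs with premature stop codons.

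The count totals of the libraries lay between 130888768 and 155391181. Smg6 itself had 95.7 and 105.1 CPM (read counts scaled to the library size by TMM factors) in the wild-type libraries, against 87.6 and 86.2 in the Smg6-deficient libraries. The groups did not overlap, and the difference did not pass edgeR's test (log2 fold change -0.21, adjusted p = 0.089). Counts over a whole gene do not show whether part of it is missing. All 12 pluripotency markers were detected in all libraries, with summed levels of 4856 to 5832 CPM in wild-type and 3921 to 4021 CPM in Smg6-deficient cells; 6 passed the test as lower and 2 as higher. All 12 extraembryonic endoderm markers rose, from a sum of 1018 to 1159 CPM to a sum of 3231 to 4675 CPM. Fibroblast markers summed to 792 to 1056 CPM and 1247 to 1333 CPM, and 4 of 10 rose while 6 did not pass. The 4 were Pdgfra (log2 fold change 2.26), Fbn1 (0.73), Col6a3 (0.64) and Col1a1 (0.49). In Smg6-deficient replicates 1 and 2, Pdgfra had 43.1 and 70.6 CPM, and the endoderm sum was 3231 and 4675 CPM. Fbn1, Col6a3 and Col1a1 were instead higher in replicate 1 than in replicate 2 of that group. Of all genes tested, 20.5% were higher and 19.2% lower. These markers moved with the genotype in the same libraries as the values below, and their part in the results was not tested. In bulk RNA, fewer cells of a type and less RNA per cell cannot be told apart.

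Many transcripts of oxidative phosphorylation were lower in Smg6-deficient cells, with calls in each of the 5 complexes. In complex II only 1 of 4 was called (25.0%), near the 19.2% of all genes tested. Of 92 members that passed the filter on low counts, 58 fell, none rose and 34 did not pass the test (edgeR quasi-likelihood test with Benjamini-Hochberg adjustment over 20895 genes, threshold 0.05). At an unadjusted p under 0.05, edgeR, DESeq2 and limma-voom each had 1 member higher, Ndufs1, and neither DESeq2 nor limma-voom called a member higher after adjustment. That is 63.0% lower, where 19.2% of all genes tested were lower and 20.5% were higher. The median log2 fold change was -0.35, beside 0.0080 for all genes tested. Both Smg6-deficient libraries lay below both wild-type libraries for 80 of the 92 members, against 35.9% of all genes tested, and above both for 3, against 37.3% of all genes tested. The 6 members left out by the filter were Cox8b, with 4 and 7 counts in wild-type and 0 and 1 in Smg6-deficient libraries, and 5 mitochondrial mRNAs without counts.

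Calls came from both genomes, but those of the mitochondrial mRNAs depended on the model. Of 84 nuclear members tested, 53 fell, with a median log2 fold change of -0.35. Of 8 mitochondrial members tested, 5 fell, with a median of -0.32. With an offset for gene length and GC content, 52 nuclear members were lower at a median of -0.33, while 0 mitochondrial members were lower and 1 was higher, at a median of -0.026. The members called also changed: 43 of the 58 that fell were still lower with this offset, and 9 others were newly lower. The number of calls depended on the Smg6-deficient libraries: without replicate 1 of that group 26 members fell, and without replicate 2 it was 24, where 10.8% and 10.6% of all genes were lower. With limma-trend on log2(RPKM + 1), 33 members fell, and 15.1% of all genes were lower. All 58 members that fell had a negative fold change in each of these settings.

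**Figure D1:**
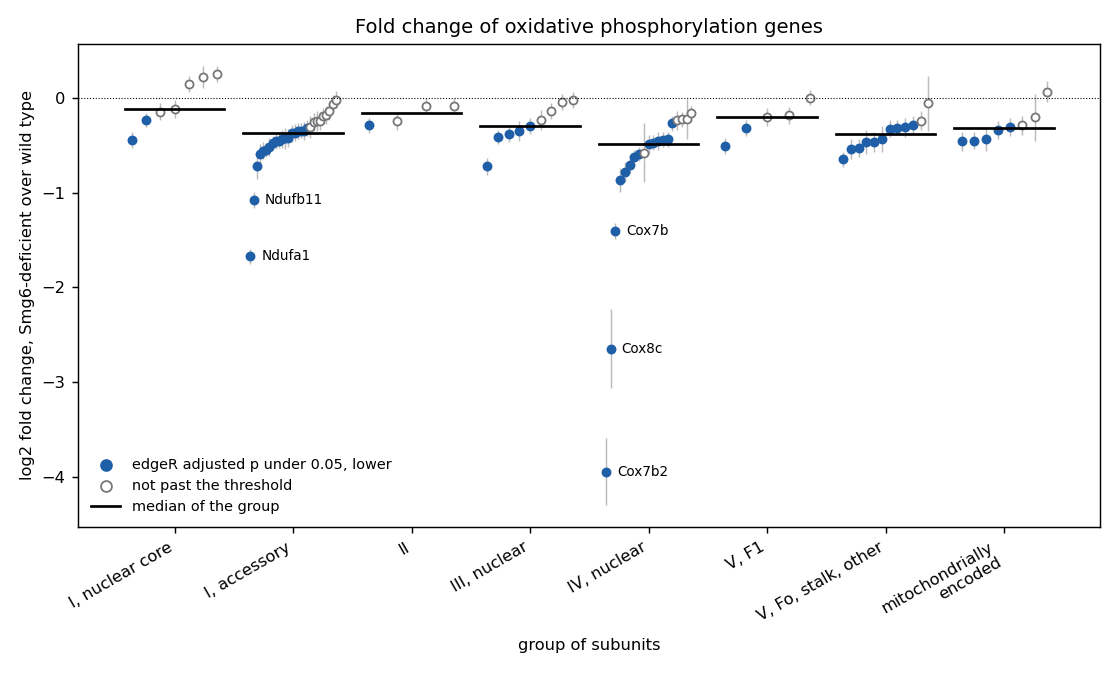
Log2 fold change (Smg6-deficient over wild type, vertical axis) of the 92 members tested, grouped by complex and role on the horizontal axis; points are genes, bars are standard errors, filled points passed edgeR's test and black lines are group medians. Most points lie between 0 and -1, with the X-linked Ndufa1, Ndufb11 and Cox7b and the low-level Cox7b2 and Cox8c further down.

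**Figure D2:**
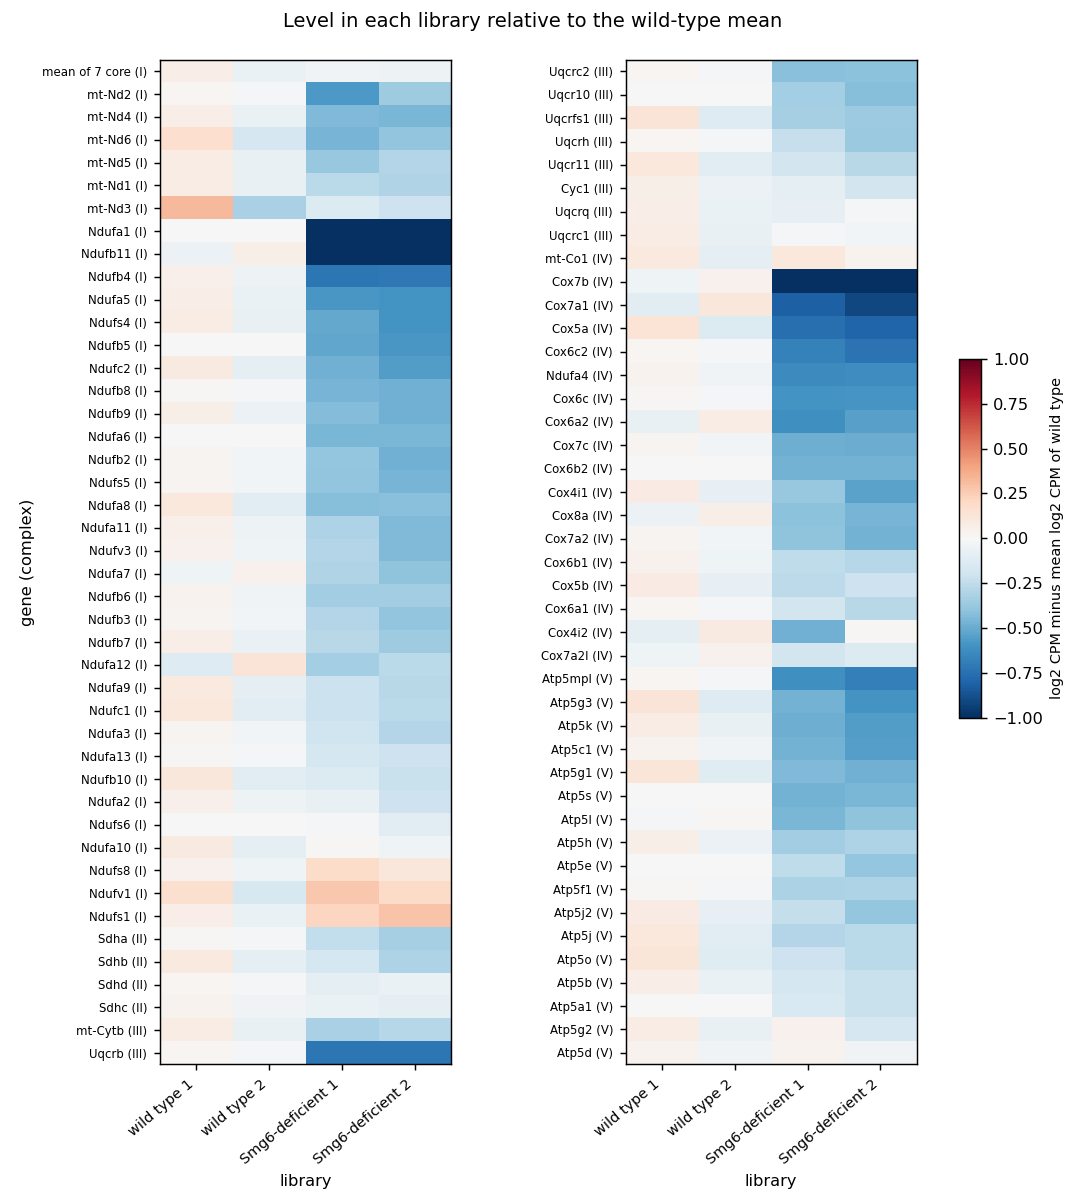
Level of each gene in each library (log2 CPM minus the wild-type mean, colour scale cut at -1 and 1), for 86 of the members tested, ordered by complex; the first row is the mean of the 7 nuclear core subunits of complex I, of which Ndufs1, Ndufv1 and Ndufs8 also have rows of their own, and Cox7b2 and Cox8c, with low counts, are left out. Both Smg6-deficient columns are blue for most genes, pale for the core mean (-0.035 and -0.052) and light red for Ndufs1, Ndufv1 and Ndufs8.

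Some of the nuclear members are known targets of the transcription factors NRF1, GABP and YY1. The upstream sequences of 3 members that fell and hold the NRF1 motif are shown as examples. Among such members whose RefSeq and GENCODE starts lie close together, these 3 had the lowest fold changes. The motif was about as frequent in members that did not fall, as given below. The sequences are the 250 bases before the RefSeq transcription start (GRCm38.p6), printed 5' to 3' on the strand of the gene, with the motif in capitals. Atp5k encodes a membrane subunit of the ATP synthase, and Ndufs5 and Ndufa11 encode accessory subunits of complex I. The stretches are chr5:108434400-108434649 (minus strand), chr4:123718187-123718436 (minus strand) and chr17:56717512-56717761 (plus strand).
Atp5k: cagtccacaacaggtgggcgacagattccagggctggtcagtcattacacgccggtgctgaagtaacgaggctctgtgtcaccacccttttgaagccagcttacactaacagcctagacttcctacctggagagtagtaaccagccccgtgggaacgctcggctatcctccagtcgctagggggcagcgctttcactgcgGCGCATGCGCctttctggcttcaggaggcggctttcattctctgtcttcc
Ndufs5: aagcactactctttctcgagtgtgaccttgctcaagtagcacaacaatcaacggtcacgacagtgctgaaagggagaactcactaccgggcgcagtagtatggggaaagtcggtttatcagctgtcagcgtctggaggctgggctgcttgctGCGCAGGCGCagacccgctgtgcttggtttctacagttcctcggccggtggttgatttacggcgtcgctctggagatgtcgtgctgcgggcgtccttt
Ndufa11: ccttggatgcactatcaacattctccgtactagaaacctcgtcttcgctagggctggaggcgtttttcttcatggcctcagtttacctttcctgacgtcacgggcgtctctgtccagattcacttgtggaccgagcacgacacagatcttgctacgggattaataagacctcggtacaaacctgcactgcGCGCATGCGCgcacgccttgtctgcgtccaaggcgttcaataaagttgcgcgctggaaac

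The RefSeq table held a promoter for 68 of the nuclear members. The NRF1 motif, the letters GCGCA, any base and GCGC in a row, was searched on both strands over 250 bases before to 50 after the start, and was present in 17 of them (25.0%), against 5.19% of 27025 genes in the table. GABP's CCGGAAG was present in 16 (23.5%), against 9.93%, and YY1's AAGATGGC in 10 (14.7%), against 3.19%. None of the 3 motifs contains another. Among members with a promoter in the table, NRF1's letters occurred in 11 of 44 that fell and in 6 of 24 others, which is 25.0% in both. GABP's occurred in 10 of 44 and 6 of 24, and YY1's in 5 of 44 and 5 of 24. The 24 others include Cox8b, which was not tested and has none of the 3 motifs. With Cox8b counted as not falling, the share of members that fell was the same with and without NRF1's letters. A match is a description of the letters and not of binding.

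Complex I, the NADH dehydrogenase, had 25 of 41 tested members lower, with a median log2 fold change of -0.35. Its nuclear members divide into core subunits, which carry the flavin and iron-sulfur clusters, and accessory subunits, which surround the core. Of 28 accessory subunits, 19 fell, with a median of -0.37. Of 7 nuclear core subunits, 2 fell, with a median of -0.11. Ndufs1, which holds iron-sulfur clusters of the peripheral arm, had 163 and 148 CPM in wild-type and 180 and 189 CPM in Smg6-deficient libraries. Its groups did not overlap and it was higher in Smg6-deficient cells, but it missed the threshold (log2 fold change 0.25, SE 0.08, adjusted p = 0.056, edgeR). Ndufv1, the flavin-binding subunit, had 113 and 90.7 CPM against 122 and 116 CPM (log2 fold change 0.22, adjusted p = 0.17, edgeR), and Ndufs8 had 36.9 and 34.8 CPM against 40.7 and 38.8 CPM (0.15, adjusted p = 0.21, edgeR).

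The mean log2 CPM of the core subunits lay above that of the accessory subunits by 0.62 and 0.56 in wild-type libraries and by 0.96 and 1.00 in Smg6-deficient libraries. These are differences of CPM within a library and not of level per length, and only their change between libraries can be read. The gap was wider in both Smg6-deficient libraries than in either wild-type library, and the difference between core and accessory subunits was not tested. The accessory mean includes the X-linked Ndufa1 and Ndufb11, while the core subunits are autosomal. In a fit of autosomal genes alone the median log2 fold changes were -0.14 for core and -0.38 for accessory subunits. With an offset for gene length and GC content the core median moved to -0.23 with 3 of 7 lower, beside -0.39 for accessory subunits. Without wild-type replicate 1 the core median was -0.0051, with 2 lower and 2 higher.

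Among accessory subunits the X-linked genes showed the lowest fold changes. Ndufa1 (ENSMUSG00000016427, chrX:37187588-37191163, minus strand), a small membrane-arm subunit needed for assembly, had 85.0 and 85.3 CPM in wild-type libraries. Its level was 27.6 and 25.9 CPM in Smg6-deficient libraries, which is 31.4% of wild type (log2 fold change -1.67, SE 0.08, adjusted p = 0.00012, edgeR). Ndufb11 (ENSMUSG00000031059, chrX:20615326-20617619, minus strand), also of the membrane arm, had 88.4 and 95.6 CPM against 43.9 and 43.2 CPM (log2 fold change -1.08, adjusted p = 0.00032, edgeR). The replicates of each group lay close together and far from those of the other group.

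Autosomal accessory subunits changed less. Ndufb4, a membrane-arm subunit, had 5.86 and 5.48 CPM in wild-type and 3.44 and 3.45 CPM in Smg6-deficient libraries (log2 fold change -0.72, adjusted p = 0.0074, edgeR). Ndufa5 had 25.4 and 23.0 CPM against 16.2 and 16.0 CPM, or 66.5% of wild type. Ndufs4, whose loss in mice gives a well known model of complex I deficiency, had 83.4 and 75.0 CPM against 55.3 and 52.2 CPM, or 67.9% of wild type. Both passed the test, and their groups did not overlap. At the other end Ndufa10 had 117 and 103 CPM against 111 and 107 CPM, with overlapping groups (log2 fold change -0.018).

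Complex II, the succinate dehydrogenase, is the only complex made of nuclear products alone and is shared with the tricarboxylic acid cycle. Sdha, the flavoprotein, fell from 294 and 289 CPM to 245 and 232 CPM (log2 fold change -0.29, adjusted p = 0.028, edgeR). Sdhb, the iron-sulfur subunit, had 124 and 108 CPM against 103 and 93.6 CPM and did not pass (adjusted p = 0.092, edgeR). The membrane anchors Sdhc and Sdhd had log2 fold changes of -0.081 and -0.082 and did not pass. All 4 genes had both Smg6-deficient libraries below both wild-type libraries, as had 35.9% of all genes tested. The median log2 fold change was -0.16. Without the filter on low counts Sdha did not pass (adjusted p = 0.051, edgeR).

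Complex III, the cytochrome bc1 complex, had 6 of 10 members lower, with a median of -0.30. Uqcrb, the subunit next to the ubiquinone-binding site, fell from 28.9 and 28.0 CPM to 17.3 and 17.2 CPM (log2 fold change -0.72, SE 0.09, adjusted p = 0.0015, edgeR); 25.5% of its 50-base windows also occur in other annotated genes, so reads could be split between copies. Uqcrc2, one of the core proteins, fell to 75.0% of wild type (log2 fold change -0.42), while its partner Uqcrc1 had 319 and 287 CPM against 298 and 297 CPM with overlapping groups. Uqcrfs1, the Rieske iron-sulfur protein, fell from 130 and 108 CPM to 94.3 and 92.5 CPM. Cyc1, cytochrome c1, had 238 and 221 CPM against 215 and 202 CPM and did not pass (log2 fold change -0.14, adjusted p = 0.23, edgeR).

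Complex IV, cytochrome c oxidase, had the lowest median of the 5 complexes, -0.48, with 14 of 20 tested members lower; the nuclear members had a median of -0.49 with 14 of 19 lower. The order of the complexes was not tested. Cox5a, a structural subunit of the core assembly, fell from 232 and 193 CPM to 126 and 121 CPM (log2 fold change -0.78, SE 0.11, adjusted p = 0.0020, edgeR). Ndufa4, named after complex I but now known as a subunit of complex IV and counted here as one, fell from 145 and 138 CPM to 91.2 and 92.1 CPM (64.7% of wild type). Cox6c fell from 93.1 and 91.4 CPM to 60.9 and 61.3 CPM. The annotated pseudogene Cox6c2 had 33.0 and 32.2 CPM against 20.4 and 19.6 CPM. However, 52.7% of its windows are shared with Cox6c, and its counts cannot be assigned with certainty. Both genes count among the 14 that fell, and their falls may not be separate. The X-linked Cox7b (ENSMUSG00000031231, chrX:106015700-106022450, plus strand) fell from 219 and 232 CPM to 83.8 and 86.5 CPM (log2 fold change -1.40, adjusted p = 0.00017, edgeR).

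Several complex IV subunits exist as paralogs with tissue-restricted forms, and some forms described for testis or muscle were detected. Cox7b2 (ENSMUSG00000049387, chr5:71442824-71548205, minus strand), known from testis, had 487 and 287 counts in wild-type and 22 and 30 counts in Smg6-deficient libraries (6.5% of wild type, log2 fold change -3.94, SE 0.35, adjusted p = 0.00051, edgeR). Cox8c, also known from testis, had 41 and 49 counts against 10 and 5 counts (log2 fold change -2.64, adjusted p = 0.0036, edgeR). Both groups were far apart for each gene, though the counts are small. Cox7b2 made up 3.44% and 2.03% of the summed RPKM (reads scaled by gene length and library size) of the Cox7b pair in wild-type libraries and 0.387% and 0.567% in Smg6-deficient libraries.

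Cox7a1, the form of heart and skeletal muscle, fell from 13.4 and 15.7 CPM to 8.23 and 7.72 CPM (log2 fold change -0.87, adjusted p = 0.0025, edgeR). Its share of the summed RPKM of Cox7a1, Cox7a2 and Cox7a2l was 15.9% and 18.2% in wild-type and 12.7% and 12.1% in Smg6-deficient libraries. Cox6b2, known from testis, fell to 72.0% of wild type and Cox6b1 to 83.0%, so Cox6b2 held 24.1% and 25.2% of the pair's RPKM and then 21.9% and 22.3%. Cox4i1, Cox6a1 and Cox8a held at least 99.2% of their families' RPKM in every library. Cox4i1, the main form, fell from 462 and 413 CPM to 336 and 302 CPM (72.9% of wild type), while its paralog Cox4i2 had 2.78 and 3.13 CPM against 2.11 and 2.97 CPM with overlapping groups. Cox6a2, the muscle form, stood at 0.257 and 0.284 CPM against 0.177 and 0.185 CPM and did not pass (adjusted p = 0.18, edgeR). Of 7 markers of cardiac and skeletal muscle, 3 rose and 1 fell, with sums of 7.61 to 8.34 CPM and 12.1 to 12.7 CPM.

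The ATP synthase had 12 of 17 tested members lower, all nuclear, with a median of -0.32. The catalytic F1 head had 2 of 5 lower and a median of -0.20. Atp5b and Atp5a1, its catalytic and partner subunits, had 2193 and 1991 CPM against 1847 and 1794 CPM, and 1571 and 1562 CPM against 1410 and 1344 CPM. Neither passed (adjusted p = 0.13 for both, edgeR), although the groups did not overlap. Atp5c1, the central stalk that turns within the head, fell from 281 and 268 CPM to 198 and 188 CPM (log2 fold change -0.51, adjusted p = 0.0037, edgeR). Atp5d, also of the central stalk, had 151 and 143 CPM in wild-type and 151 and 144 CPM in Smg6-deficient libraries.

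Of the 12 members of the membrane part (Fo), the peripheral stalk and other associated subunits, 10 fell, with a median of -0.38. Atp5mpl, a small membrane subunit, fell from 66.8 and 65.4 CPM to 43.2 and 41.2 CPM (log2 fold change -0.65, SE 0.08, adjusted p = 0.0015, edgeR). Atp5g1, Atp5g2 and Atp5g3 encode the same c-ring protein with different leader peptides. Atp5g3 held between 97.2% and 97.6% of their summed RPKM in the 4 libraries and fell from 305 and 256 CPM to 201 and 185 CPM. Atp5g1 fell to 72.3% of wild type, and Atp5g2 stood at 0.267 to 0.314 CPM. Of the windows of Atp5g1 and Atp5g2, 11.1% and 38.3% also occur in other annotated genes, while no window of Atp5g3 does. Reads of Atp5g1 and Atp5g2 could thus be split between copies, and the effect on these shares was not tested. The gene lengths behind the RPKM values are not stated, and for some members the values imply a length other than that of all annotated exons, so shares of RPKM within a family rest on the authors' lengths. With an offset for gene length and GC content, 5 of 5 members of the head and 6 of 12 of the rest were lower, with medians of -0.30 and -0.34. The difference between head and membrane part was not tested and shrank in that setting.

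The 3 X-linked members fell to a median log2 fold change of -1.40, and all 3 passed the test. All X-linked genes tested had a median of -0.76, and 590 of 1040 (56.7%) were lower and 37 higher. An effect on these genes and on the X chromosome as a whole cannot be told apart from these values. Among autosomal members 50 of 81 fell, with a median of -0.35. In a fit of autosomal genes alone 51 of 81 fell, with a median of -0.37, where 18.3% of all genes in the fit were lower.

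The 13 mitochondrially encoded mRNAs cover subunits of complex I, cytochrome b, 3 subunits of complex IV and 2 of the ATP synthase. mt-Co2, mt-Atp8, mt-Atp6, mt-Co3 and mt-Nd4l had 0 counts in all libraries and mt-Nd3 had 180 to 294. The shares and ratios below thus do not measure the whole set of mitochondrial mRNAs. Together the counted mRNAs took 2.25% and 2.03% of counts in wild-type and 1.79% in each Smg6-deficient library. The groups did not overlap, but 2 libraries against 2 cannot reach a p below 0.333 in an exact permutation test (two-sided p = 0.333). Nuclear members took 1.20% and 1.13% against 0.932% and 0.897%. Mitochondrial counts were 1.88 and 1.79 times the nuclear members' counts in wild-type and 1.92 and 1.99 times in Smg6-deficient libraries, so the groups did not overlap. Without mt-Co1 the ratio was 1.28 and 1.23 against 1.17 and 1.25, with overlapping groups. Mitochondrial rRNA took 0.136% and 0.180% against 0.140% and 0.224%, with overlapping groups. How the libraries selected RNA bears on that value and was not tested.

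The mRNAs of complex I, mt-Nd2 and mt-Nd4, had the lowest fold changes. The level of mt-Nd2 was 2414 and 2353 CPM in wild-type and 1605 and 1861 CPM in Smg6-deficient libraries (72.7% of wild type, log2 fold change -0.46, SE 0.10, adjusted p = 0.014, edgeR). For mt-Nd4 it was 1218 and 1110 CPM against 855 and 845 CPM (73.0%). Also lower were mt-Nd5 (79.1% of wild type), mt-Nd6 (73.9%) and mt-Cytb (80.9%). Because the libraries do not mark strand, reads from mt-Nd6, the only mRNA of the light strand, cannot be told from antisense transcripts over it. mt-Nd1 had 4655 and 4188 CPM against 3658 and 3582 CPM and missed the threshold (log2 fold change -0.29, adjusted p = 0.056, edgeR).

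The mRNA with the most counts, mt-Co1, encodes the catalytic subunit of complex IV. It had 7067 and 6163 CPM in wild-type and 7088 and 6771 CPM in Smg6-deficient libraries, with overlapping groups (log2 fold change 0.067, SE 0.11, adjusted p = 0.65, edgeR). Its share of all counts was 0.719% and 0.630% against 0.696% and 0.663%, while the other mitochondrial mRNAs together took 1.53% and 1.398% against 1.09% and 1.12%. Whether mt-Co1 differs from the other mRNAs was not tested. Nuclear subunits of the same complex IV had a median of -0.49.

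The calls for mitochondrial mRNAs depended on the processing. With an offset for gene length and GC content their median was -0.026, 0 of the 8 passed edgeR's test as lower (0 also at an unadjusted p under 0.05) and mt-Co1 was called higher (log2 fold change 0.31, adjusted p = 0.039, edgeR). With limma-trend on log2(RPKM + 1), 0 were called (0 also unadjusted), at a median of -0.37. Without Smg6-deficient replicate 1, edgeR called 0 (3 lower at an unadjusted p under 0.05), and without replicate 2 it called 1. DESeq2 and limma-voom on all libraries called 6 lower each. The nuclear median was -0.33 with the same offset for length and GC, with 52 of 84 lower.

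The counts of mitochondrial mRNAs were uneven along the mitochondrial genome. mt-Co2, mt-Atp8, mt-Atp6, mt-Co3 and mt-Nd4l had 0 counts in all 4 libraries, and mt-Nd3 had 180 to 294 counts, where mt-Nd1 had 483709 to 651704. A nuclear copy of this part of the mitochondrial genome is annotated on mouse chromosome 1 as a row of unprocessed pseudogenes, so the reference was searched for windows of 50 bases, the read length, that also occur in another annotated gene. The share of such windows was 100% for mt-Co2, 99.9% for mt-Co3, 99.5% for mt-Atp6, 98.8% for mt-Nd4l and 98.0% for mt-Nd3. It was 62.2% for mt-Nd4, 51.1% for mt-Co1, 8.2% for mt-Nd2 and 7.6% for mt-Nd5, and no window of mt-Nd1, mt-Nd6 or mt-Cytb was shared.

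**Figure D3:**
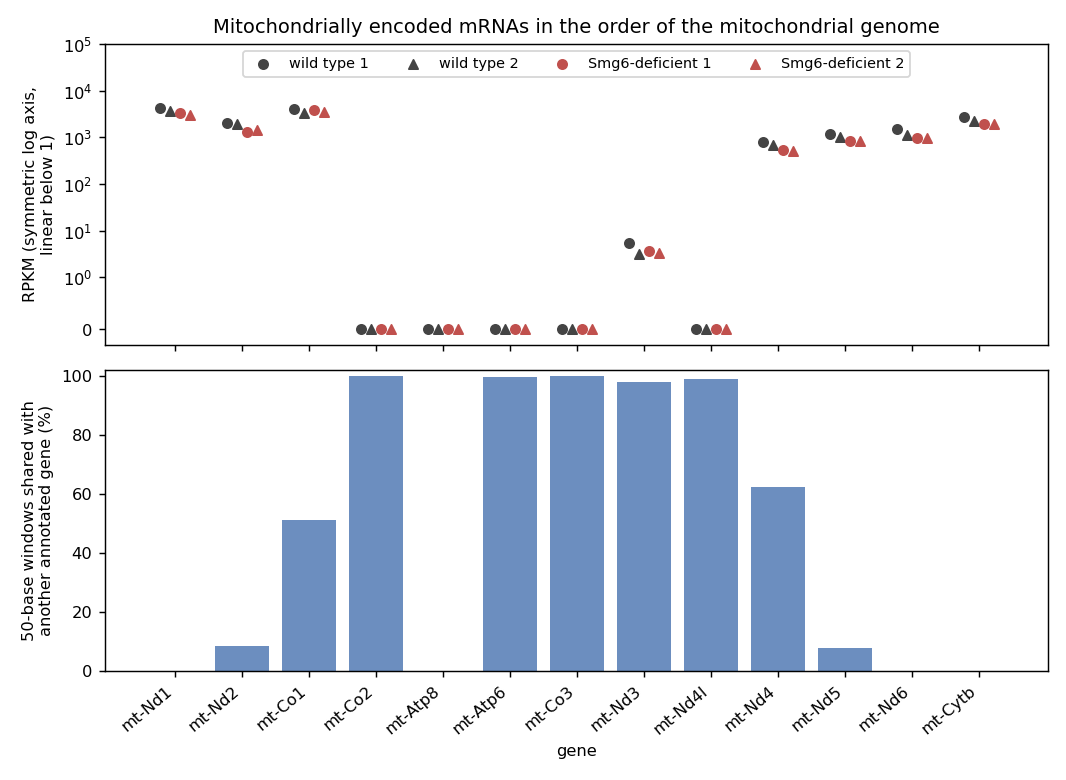
Upper panel: RPKM of the 13 mitochondrial mRNAs in each library (symmetric log axis, linear below 1), in the order of the mitochondrial genome; points are libraries. Lower panel: percent of 50-base windows shared with another annotated gene. The 4 genes with 98.8% or more of their windows shared are at 0 in all libraries, as is mt-Atp8, for which no window is shared.

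The start of 2 genes shows how close the copies are. The first 50 bases of mt-Co2 (chrM:7013-7062, plus strand) are those of Gm28661 (chr1:24615516-24615565, minus strand), with no difference over 681 aligned bases. The first 50 bases of mt-Nd3 (chrM:9459-9508, plus strand) differ from those of Gm28438 (chr1:24613070-24613119, minus strand) by T3C, counted from 1 at the first base of mt-Nd3, with mt-Nd3's base first. That base, in capitals, is the only difference over 345 aligned bases. Coordinates are those of GRCm38, and the sequences are from the GENCODE transcripts.
mt-Co2: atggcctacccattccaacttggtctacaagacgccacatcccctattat
Gm28661: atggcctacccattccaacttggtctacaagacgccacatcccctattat
mt-Nd3: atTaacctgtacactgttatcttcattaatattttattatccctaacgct
Gm28438: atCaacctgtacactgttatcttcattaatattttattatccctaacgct

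Windows shared with the chromosome 1 copies lie between positions 6394 and 11042 of the mitochondrial genome, from within mt-Co1 to within mt-Nd4. No window of mt-Atp8, inside this stretch, is shared. mt-Co1, mt-Nd2 and mt-Nd5 also share windows with genes other than these copies, and mt-Co2 and mt-Atp6 share windows with 2 other annotated genes each. Within mt-Co1, 483 bases align to Gm29216 with 1 difference (A1066T, counted from the first base of mt-Co1), and 876 bases of mt-Nd4 align to Gm28439 with none. Of these copies only Gm10222, the copy of mt-Nd4l, has a row in the deposited tables, and it had 0 counts in all libraries. How reads with several alignments were treated is not given in the sources used here, and its part in the 0 values was not tested. No annotated gene covers the copy of mt-Atp8. The 0 counts of the 5 genes are not read here as a measure of their level, and RPKM values of mt-Co1 and mt-Nd4 divide by a length of which 51.1% and 62.2% lies in shared windows. Among nuclear members, 63 tested genes shared under 10% of their windows, and 39 of these fell, with a median of -0.35. Of the 21 with a larger share, 14 fell, with a median of -0.42.

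Assembly factors, the proteins that build the complexes, were called in both directions. For comparison, 19.2% of all genes tested were lower and 20.5% were higher. Of 17 complex I assembly factors tested, 6 rose and 3 fell, with a median log2 fold change of 0.25. Ndufaf5 rose from 14.3 and 13.7 CPM to 22.04 and 21.2 CPM (log2 fold change 0.63), and Foxred1 rose by 0.45 on the same scale. Ndufaf1 fell from 34.7 and 34.1 CPM to 22.3 and 22.6 CPM (log2 fold change -0.62), and Ndufaf4 had a log2 fold change of -0.52. Of 22 complex IV assembly factors 5 fell, near the share of all genes, and none rose, with a median of -0.034. The 5 were Cox14, Cox17, Cox20, Cox19 and Cmc1, of which Cox17 delivers copper. The ATP synthase factors had 2 lower and 1 higher of 6, complex III factors 1 and 1 of 6, and complex II factors 1 and 1 of 4. Bcs1l, which inserts the Rieske protein into complex III, rose from 10.6 and 9.03 CPM to 16.1 and 19.7 CPM (log2 fold change 0.87).

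Genes of mobile carriers and of exchange across the membranes went both ways, with 8 lower and 7 higher of 23 and a median of -0.079. Of all genes tested, 19.2% were lower and 20.5% higher. Slc25a5, an adenine nucleotide carrier encoded on the X chromosome, fell from 518 and 431 CPM to 194 and 183 CPM (log2 fold change -1.33). Slc25a4, its autosomal paralog, fell from 381 and 319 CPM to 270 and 260 CPM. Both subunits of the electron transfer flavoprotein, Etfa and Etfb, fell (log2 fold changes -0.75 and -0.47). Within ubiquinone synthesis, Pdss1 and Pdss2, which make its side chain, rose (0.72 and 1.13), and so did Coq2, Coq4, Coq5, Coq6 and Coq9, while Coq3, Coq7 and Coq8a fell. Cycs, cytochrome c, had 2.59 and 2.35 CPM against 1.92 and 2.04 CPM and did not pass. Shared windows were searched for members only, so whether reads of Cycs could be placed was not checked.

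Of 22 genes that maintain or transcribe mitochondrial DNA, 8 rose and 3 fell, with a median of 0.094. Beside this list and the next, 20.5% of all genes tested were higher and 19.2% lower. Polrmt, the mitochondrial RNA polymerase, rose from 31.2 and 32.2 CPM to 52.4 and 51.7 CPM (log2 fold change 0.72), and Polg, the DNA polymerase, rose from 101 and 103 CPM to 148 and 154 CPM. Tfam, which packages mitochondrial DNA and activates its promoters, fell from 153 and 146 CPM to 113 and 110 CPM (log2 fold change -0.42), and Ssbp1, the single-strand binding protein, fell alike (-0.43). The third gene that fell was Mterf1a (-0.72). Among 12 nuclear regulators, Gabpa, Gabpb1 and Yy1 fell (log2 fold changes -0.32, -0.36 and -0.25), and Pprc1 and Creb1 rose. Nrf1 had 94.1 and 87.2 CPM against 91.6 and 82.2 CPM with overlapping groups, and Ppargc1a stood at 0.052 to 0.104 CPM.

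The tricarboxylic acid cycle enzymes had 4 lower and 1 higher of 14, with a median of -0.18, where 19.2% of all genes were lower. Idh3g, encoded on the X chromosome, fell from 238 and 224 CPM to 108 and 104.6 CPM (log2 fold change -1.12), Fh1 and Sucla2 fell by less (-0.45 and -0.48), Dld fell too (-0.32), and Ogdh rose (0.49). Mitochondrial ribosomal proteins, which translate the 13 mRNAs, had 9 lower and 10 higher of 77, with a median of -0.060. The share of that list called in either direction lay below the share of all genes. The calls and medians of these lists come from the same fit as those of the members and were not tested against them. Ndufa4l2, a paralog of Ndufa4 outside the rule, fell from 71.3 and 84.2 CPM to 40.3 and 31.8 CPM, and Ndufab1, the acyl carrier subunit of complex I, did not pass (log2 fold change 0.024).

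**Figure D4:**
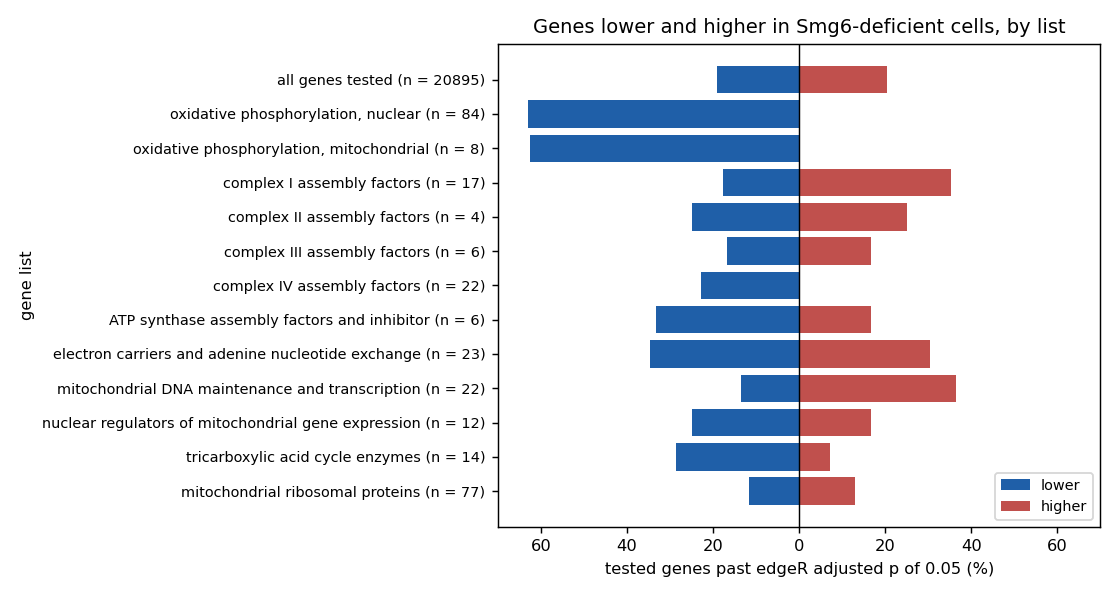
Percent of tested genes that passed edgeR's test as lower (bars to the left) or higher (bars to the right) in Smg6-deficient cells, by gene list, with the number tested in parentheses. Both rows of oxidative phosphorylation genes reach 63.1% and 62.5% to the left with none to the right, beside 19.2% and 20.5% for all genes; complex IV assembly factors also have no bar to the right.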

How the data were processed

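Counts and RPKM per gene were analysed from 4 libraries of mouse ES cells, 2 wild type and 2 Smg6-deficient. Per the labels' protocols, 2.5 µg of total RNA entered a TruSeq v2 preparation, and reads were single and 50 nt long. The submitters' processing notes name TopHat2 2.0.9 and mm10. Not given in the sources used here are the counter, its annotation and the handling of multiply aligned reads. The authors deposited whole-number counts and RPKM for 37224 Ensembl genes. Symbols and positions came from GENCODE M21 (35449 genes with a symbol). The lengths behind the deposited RPKM are not given there either: per library, the median over genes of the implied denominator was 1.14 to 1.22 times the count total times the annotated exon length, and 61.2% to 61.3% of genes lay within 5% of that median.

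With edgeR 4.0.16 in R 4.3.3, genes were kept by filterByExpr at a minimum count of 10, libraries were scaled by TMM, and the quasi-likelihood test had genotype as its term. Benjamini-Hochberg adjustment covered 20895 genes, and the threshold was 0.05. Standard errors are the fold change over the square root of F. The common biological coefficient of variation was 0.118, with 2 residual degrees of freedom per gene. This step was first tested on simulated data. No replicate pair matched within counting noise (chi-square over degrees of freedom of 69.7 and 39.4). Named genes were all mitochondrial and X-linked members, the 10 largest falls, the 3 highest by RPKM in each complex, the 3 lowest tested, paralogs, and up to 3 genes of each list; others in the text were chosen after their values were seen. The members and gene lists were chosen with earlier results of these data known. Alternatives were DESeq2 1.42.0 and limma 3.58.1 tests, other scalings, filters and units, offsets for length and GC content, the replicate block, and leaving out each library; restriction to autosomal genes, to members with few shared windows and to members other than Cox6c2 was added after seeing the data. The values of 1 member are not reported here.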

Additional observations from a re-analysis of the deposited data

How the results depend on the processing

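The share of members called lower depended on which libraries entered. Without each library in turn, between 24 and 74 members were lower and between 0 and 2 higher, while between 2300 and 4899 of all genes were lower and between 2805 and 5578 higher. In those fits the group left with 1 library is assumed to vary like the other. Medians lay between -0.41 and -0.30 for nuclear members, -0.46 and -0.23 for mitochondrial members, -0.43 and -0.30 for complex I, -0.23 and -0.087 for complex II, -0.38 and -0.21 for complex III, -0.53 and -0.47 for complex IV, and -0.41 and -0.29 for complex V. The share of counts in mitochondrial mRNAs, in percentage points, differed by -0.47 to -0.24. On the deposited RPKM with limma-trend, 33 members were lower with either pseudocount (1 or 0.1), while 3147 or 3214 of all genes (15.1% or 15.4%) were lower and 2700 or 2643 higher; the cause was not tested.

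Scaling by library size alone gave medians of -0.41 for nuclear members, -0.40 for complex I, -0.22 for complex II and -0.54 for complex IV. The complex IV median was -0.52 with upper-quartile factors, -0.51 with at least 50 counts in 2 libraries, -0.51 on log2(RPKM + 0.1), -0.42 with an offset for gene length and -0.50 among autosomal genes. With the offset for length and GC content the mitochondrial median was -0.026, the complex II median -0.22, and 52 members were lower and 1 (mt-Co1) higher. Among the genes named by rule, signs turned in some that had not passed: mt-Nd3 (0.0079 with the length offset and replicate block, 0.24 with length and GC) and mt-Nd1 (0.028 with length and GC), and, with each library left out in turn, mt-Nd3 (-0.51 to 0.16), Uqcrc1 (-0.12 to 0.068), Atp5g2 (-0.16 to 0.053), mt-Co1 (-0.049 to 0.18) and Cox4i2 (-0.47 to 0.018). The library that turned the sign was wild-type replicate 1 for mt-Nd3, Uqcrc1 and Atp5g2, wild-type replicate 2 for mt-Co1, Smg6-deficient replicate 1 for Cox4i2 and Smg6-deficient replicate 2 for Atp5g2. Of the members fitted, 5 of 92 had a positive fold change, and between 3 and 10 in the alternatives, which fitted 81 to 92. The replicate numbers are shared between groups, but nothing in the labels pairs them (correlation of deviations 0.15 over 2 pairs). With the replicate block, 63 members were lower and 1, Ndufs1, higher, and with the length offset and block the complex IV median was -0.42.

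With 2 libraries a group, p-values rest on few residual degrees of freedom. Few counts limit Cox8b, Cox8c, Cox6a2 and Atp5g2. Reads of members with near copies cannot be placed with certainty.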
